A study of Oryza sativa with 4 samples.

Results

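The chromosome 10 root hair gene cluster is a run of 6 neighbouring rice genes, LOC_Os10g31640, LOC_Os10g31650, LOC_Os10g31680, LOC_Os10g31700, LOC_Os10g31710 and LOC_Os10g31720, which the study lists among the markers of its root hair nuclei. Here the cluster is followed through the open chromatin that covers it. Every peak that overlapped positions 16835510 to 16885590 of chromosome 10 was taken, which gave 10 or 11 peaks per library. Peaks with 1 bp or more in common were then joined across libraries, so that the cluster held 8 regions of 66332 in all, and all 8 were among the 55496 regions called in every library. The genes were chosen by a score of accessibility over and around each gene in root hair nuclei of libraries used here. Higher accessibility in root hair nuclei is therefore what chose them, and it is given below as a description with no test.

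The data are single-nucleus ATAC-seq, in which a transposase cuts open chromatin and the cuts are counted per nucleus and peak. There were 2 HS libraries, from seedlings given a heat stress, described by the study as an exposure of some hours to high temperature, and 2 Normal libraries, from seedlings without it. All 4 came from 5 mm primary root tips of 3-day-old seedlings of the cultivar Nipponbare grown at 28 °C, and each library pooled many tips. The study describes the HS libraries as independent rounds of the experiment and its samples as handled in different batches, and does not say which libraries shared a batch, so that batch and condition cannot be told apart. Positions are as the deposited files give them, and no source used here names their genome build. The libraries held 350206085 and 356798056 cuts in HS, and 364736225 and 363921815 in Normal, of which 93.6 to 93.8% fell in barcodes taken as nuclei.

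A root hair is a tubular outgrowth of a single epidermal cell, which widens the surface through which the root takes up water and nutrients and anchors it in the soil. The root cap is a separate tissue that covers the tip, shields the meristem, senses gravity and sheds its outer cells. Open chromatin marks promoters and other regulatory DNA in use or ready for use, and neighbouring genes may lie in one open stretch or each have an open site of their own. Tandem gene clusters arise mostly by local duplication, and their members can share a pattern of activity or part ways. No role is given here for the 6 genes, which the files and the reference name only by locus.

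The 8 regions fell into 2 blocks with a middle stretch between them. Block 1 spanned 15652 bp, from 16835510 to 16851161, and consisted of region 1 (12311 bp), which reached LOC_Os10g31640 and LOC_Os10g31650, and region 2 (2480 bp), which lay beside LOC_Os10g31650. Block 2 spanned 20688 bp, from 16864903 to 16885590, and consisted of regions 7 and 8. Region 7 (10536 bp) lay over LOC_Os10g31680 and most of LOC_Os10g31700. Region 8 (9120 bp) lay over LOC_Os10g31710 and LOC_Os10g31720, and reached LOC_Os10g31700 only in the 2000 bp before its start. The 13741 bp between them held regions 3 to 6, with lengths of 674, 3930, 1464 and 2182 bp, and no listed gene. A region was assigned to a gene where it overlapped the gene's body or the 2000 bp before its start. By the same rule region 1 also reached LOC_Os10g31630, which starts before the window, and regions 1 and 2 reached LOC_Os10g31660, a listed gene inside block 1 that is not among the 6.

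These were long peaks. The longest peak of the cluster measured 10484 and 10462 bp in the HS libraries, and 9311 and 12277 bp in the Normal libraries, where the median over all peaks of a library was 1164 to 1204 bp. In each library 91.0 to 91.4% of all peaks were 5000 bp or shorter, and 3 of the cluster's peaks were longer. The called length differed between conditions. Block 1 was called over 13426 and 13515 bp in the HS libraries, against 14180 and 14652 bp in the Normal libraries, and block 2 over 19600 and 19534 bp in the HS libraries, against 18329 and 18328 bp in the Normal libraries. Nearly all of the difference in block 2 came from region 7, which was 1 peak in both HS libraries and 3 peaks in both Normal libraries. Cuts outside a library's own peaks are not in its matrix, so that these lengths bear on every comparison of HS with Normal. The starts of LOC_Os10g31640, LOC_Os10g31680, LOC_Os10g31710 and LOC_Os10g31720 lay inside a peak in all 4 libraries, and those of LOC_Os10g31650 and LOC_Os10g31700 in none.

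Nuclei were grouped without using the cluster. Each nucleus was scored by its cuts in loci from the study's root hair and root cap marker lists. The score was taken per 10000 cuts in regions called in all 4 libraries, after every locus on or near the cluster had been left out. From each list 31 genes were used. These were the first in the listed order that were absent from the other list, and the marker gene named in the study's text. A nucleus with a root hair score of at least 1.75 times its library's mean and a root cap score under 2 times the mean was called root hair-like, and a nucleus with a root cap score of at least 2 times and a root hair score under 1.75 times was called root cap-like. Of the 41258 nuclei kept, 6302 were root hair-like, 2075 root cap-like, 766 passed both limits and 32115 passed neither. The root hair-like share was 15.5 and 15.2% in the HS libraries, and 15.3 and 15.1% in the Normal libraries. All 29 root hair loci with a region were higher in root hair-like nuclei than in nuclei that passed neither limit, with a median log2 ratio of 2.28, and all 31 root cap loci were higher in root cap-like nuclei, with a median of 2.22. The root hair loci ranged from 0.04 at LOC_Os02g17870 to 3.69 at LOC_Os05g27000, and the root cap loci from 0.79 at LOC_Os01g73700 to 4.75 at LOC_Os11g29980. Between the 2 classes, all 29 root hair loci were higher in root hair-like nuclei, and 30 of 31 root cap loci in root cap-like nuclei. The exception was LOC_Os08g30780, with 2.84 cuts per 10000 in root cap-like and 3.11 in root hair-like nuclei. The classes were cut on the summed cuts of these same loci, so that higher levels in the own class were largely set in advance. These lists were also drawn by the study from libraries used here, so that the classes are ranges of a score and not independent cell types. Within 10% of the root hair limit lay 3.56 to 4.18% of nuclei, and within 10% of the root cap limit 1.93 to 2.57%. The root cap-like nuclei also had a raised root hair score, with medians of 13.04 to 15.07 per 10000, where nuclei that passed neither limit had 7.92 to 8.79 and root hair-like nuclei 35.2 to 35.6. Root hair-like nuclei likewise had a raised root cap score, with medians of 20.3 to 21.3, where nuclei that passed neither limit had 13.1 to 14.4.

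Block 2 was open mainly in root hair-like nuclei, and block 1 was open in root hair-like and, at a lower level, in root cap-like nuclei. In root hair-like nuclei block 2 had 4.40 and 4.27 cuts per 10000 in the HS libraries, and 4.49 and 4.48 in the Normal libraries. Root cap-like nuclei had 0.932 and 0.993 in the HS libraries, and 0.760 and 0.763 in the Normal libraries, and nuclei that passed neither limit had 0.302 to 0.361. The root hair-like level was therefore above the root cap-like level by a log2 ratio of 2.17 ± 0.094 in HS and 2.56 ± 0.0057 in Normal (SD, n = 2 libraries each), or 4.50-fold and 5.89-fold. No root cap-like value reached any root hair-like value.

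Block 1 had 2.41 and 2.45 cuts per 10000 in root hair-like nuclei of the HS libraries, and 2.84 and 2.89 in those of the Normal libraries. Root cap-like nuclei had 1.38 and 1.52 in the HS libraries, and 1.59 in both Normal libraries, and nuclei that passed neither limit had 0.317 to 0.347. The difference between root hair-like and root cap-like nuclei was thus a log2 ratio of 0.75 ± 0.081 in HS and 0.85 ± 0.020 in Normal (SD, n = 2 each), or 1.68-fold and 1.80-fold. Against nuclei that passed neither limit, block 1 was 4.52-fold higher in root cap-like nuclei of the HS libraries and 4.59-fold in those of the Normal libraries, where block 2 was 2.68-fold and 2.47-fold higher. The study placed LOC_Os10g31640 and LOC_Os10g31650 in both of its lists and the other 4 genes in the root hair list only. This contrast between the blocks was therefore known from libraries used here, and it has no test.

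**Figure D1:**
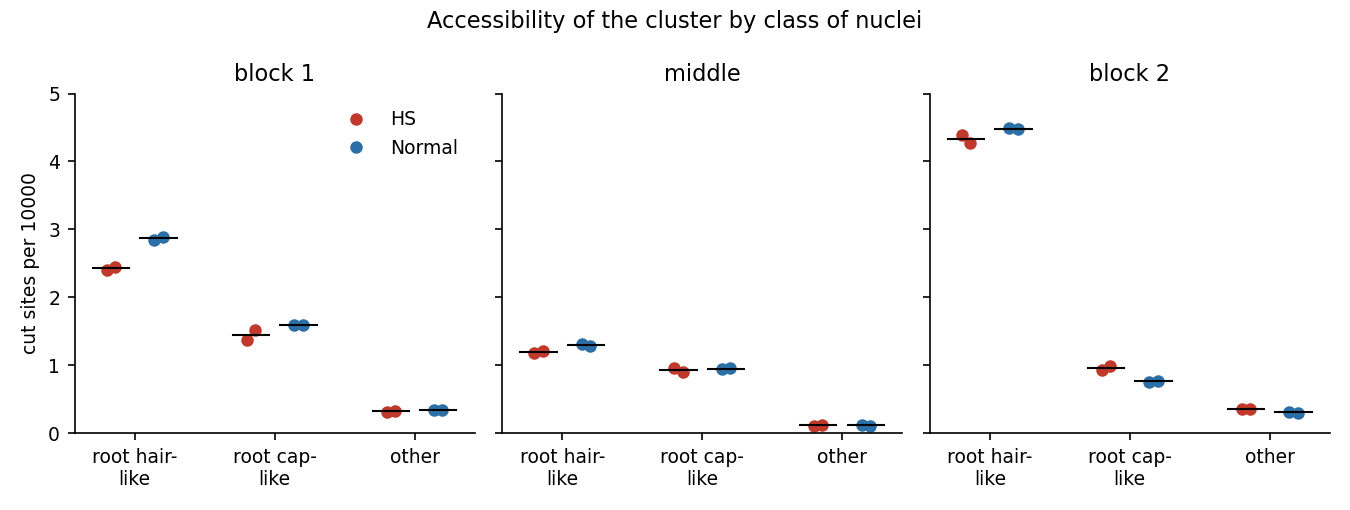
Cuts per 10000 in block 1, the middle stretch and block 2, by class of nuclei, with HS libraries left of Normal libraries. Each point is a library and each black line the mean of 2 libraries. Block 2 lies between 4.27 and 4.49 in root hair-like nuclei and under 1.0 in root cap-like nuclei, while block 1 lies between 1.38 and 1.59 in root cap-like nuclei.

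The change between the 2 patterns did not fall at the edge of block 1. Region 4, the largest region between the blocks, was nearly as open in root cap-like as in root hair-like nuclei, with log2 ratios of root hair-like over root cap-like of -0.05 and 0.06 in the HS libraries and 0.37 and 0.15 in the Normal libraries. Its level was 0.731 and 0.725 cuts per 10000 in root hair-like nuclei of the HS libraries, against 0.754 and 0.695 in root cap-like nuclei of the same libraries. In the Normal libraries the same region had 0.785 and 0.759 in root hair-like nuclei, against 0.609 and 0.686 in root cap-like nuclei. Region 4 thus had the highest root cap-like level per kb of the 8 regions, 0.189 in HS and 0.167 in Normal, above 96.6 and 95.5% of all regions called in every library.

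Region 3, the smallest, had log2 ratios of 1.72 and 0.80 in HS and 0.73 and 1.25 in Normal, from 29 to 92 cuts in root cap-like nuclei per library. Region 5 had a small excess in root hair-like nuclei, with log2 ratios of 0.68 and 1.03 in HS and 0.30 and 0.67 in Normal. From region 6 on, which starts at 16862191, the ratios were 1.87 and 2.20 in HS and 2.06 and 1.55 in Normal, and the root cap-like level was only 1.68-fold (HS) and 1.40-fold (Normal) that of nuclei that passed neither limit. Region 6 held only 37 to 46 cuts from root cap-like nuclei per library. The ratio was thus higher in region 6 than in region 5 in each library, but the rise along the cluster was not a single step, since region 3 stood above region 4 in each library and in HS replicate 1 came near region 6. Region 7 had ratios of 1.89 and 1.77 in HS and 2.34 and 2.49 in Normal, and region 8 had 2.62 and 2.497 in HS and 2.80 and 2.61 in Normal. Region 8, over LOC_Os10g31710 and LOC_Os10g31720, was the region of the cluster most restricted to root hair-like nuclei.

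Blocks were not uniform inside. In HS replicate 2, the only library that split the body of region 1, the peak from 16836760 to 16841758, over LOC_Os10g31640, had a log2 ratio of root hair-like over root cap-like of 1.304, and the peak from 16842331 to 16847811, which ended at LOC_Os10g31650, had 0.20. The short peak at the left edge of the window, from 16835510 in HS replicate 2 and 16835549 in HS replicate 1, was only 0.60 and 0.73 above nuclei that passed neither limit on the log2 scale in root hair-like nuclei. In the Normal libraries the first of the 3 peaks of region 7, over LOC_Os10g31680, had ratios of root hair-like over root cap-like of 2.77 and 3.16, and the last, over LOC_Os10g31700, had 2.07 and 2.15.

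Among the 40368 regions with at least 20 cuts in each class and library, the log2 ratio of root hair-like nuclei over those that passed neither limit had a median of -0.09 in HS and -0.06 in Normal. Region 8 had 3.86 in HS and 3.98 in Normal, rank 3 and rank 6 from the top. The other 7 regions of the cluster had 2.78 to 3.64 in HS and 2.29 to 3.78 in Normal. All 8 were above 2-fold in both conditions, where 5.55% of the 40368 regions were, and this is the contrast that chose the genes. In root cap-like nuclei 7 of the 8, all but region 6, were above 2-fold in both conditions (4.94% of all), and for root hair-like over root cap-like nuclei the 3 regions from region 6 on were (4.96% of all). In cuts per 10000 and kb, region 8 reached 0.253 in HS and 0.263 in Normal in root hair-like nuclei, where the median region had 0.0487 and 0.0490. Over all nuclei it had 0.0581 in HS and 0.0578 in Normal, against medians of 0.0502 in both, so that in the pooled tip the cluster did not stand out in height.

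The cluster lay inside a longer stretch of the same kind. From -123 to 86.8 kb relative to the start of the window, 27 regions passed the minimum of 20 cuts, 19 of them outside the window. Of these 19, 13 were at least 2-fold higher in root hair-like nuclei than in those that passed neither limit in both conditions, and 11 were at least 2-fold higher in root cap-like nuclei. Just outside the left edge, at a distance of 1217 bp, the region from 16828859 to 16834292 at LOC_Os10g31630 had log2 ratios of root hair-like over root cap-like of 0.75 in HS and 0.61 in Normal, close to those of region 1 just inside (0.73 and 0.89). Just outside the right edge, at 4411 bp, the region from 16890002 to 16897336 at LOC_Os10g31740 had 3.25 in HS and 3.36 in Normal, above region 8 just inside (2.56 and 2.71). On either side, the pattern inside the window thus continued beyond its edge.

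The listed genes around the window showed both patterns. At the left, the region of LOC_Os10g31510, a gene in both lists, had 1.15 cuts per 10000 in root hair-like and 1.58 in root cap-like nuclei of the HS libraries, and 1.40 in root hair-like and 1.35 in root cap-like nuclei of the Normal libraries. The region of LOC_Os10g31690, also in both lists, had 0.934 in root hair-like and 0.564 in root cap-like nuclei in HS, and 0.866 and 0.428 in Normal. At the right, the region of LOC_Os10g31740, in the root hair list only, had 1.43 in root hair-like and 0.151 in root cap-like nuclei in HS, and 1.84 and 0.180 in Normal. The last listed gene of the area, LOC_Os10g31780, is in the root cap list only, and its region had 0.119 in root hair-like and 0.205 in root cap-like nuclei in HS, and 0.219 and 0.372 in Normal. The 8 genes of the area in both lists all lay to the left of region 6. Genes in the root hair list only lay on either side, with LOC_Os10g31380, LOC_Os10g31540, LOC_Os10g31550, LOC_Os10g31554 and LOC_Os10g31630 to the left.

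**Figure D2:**
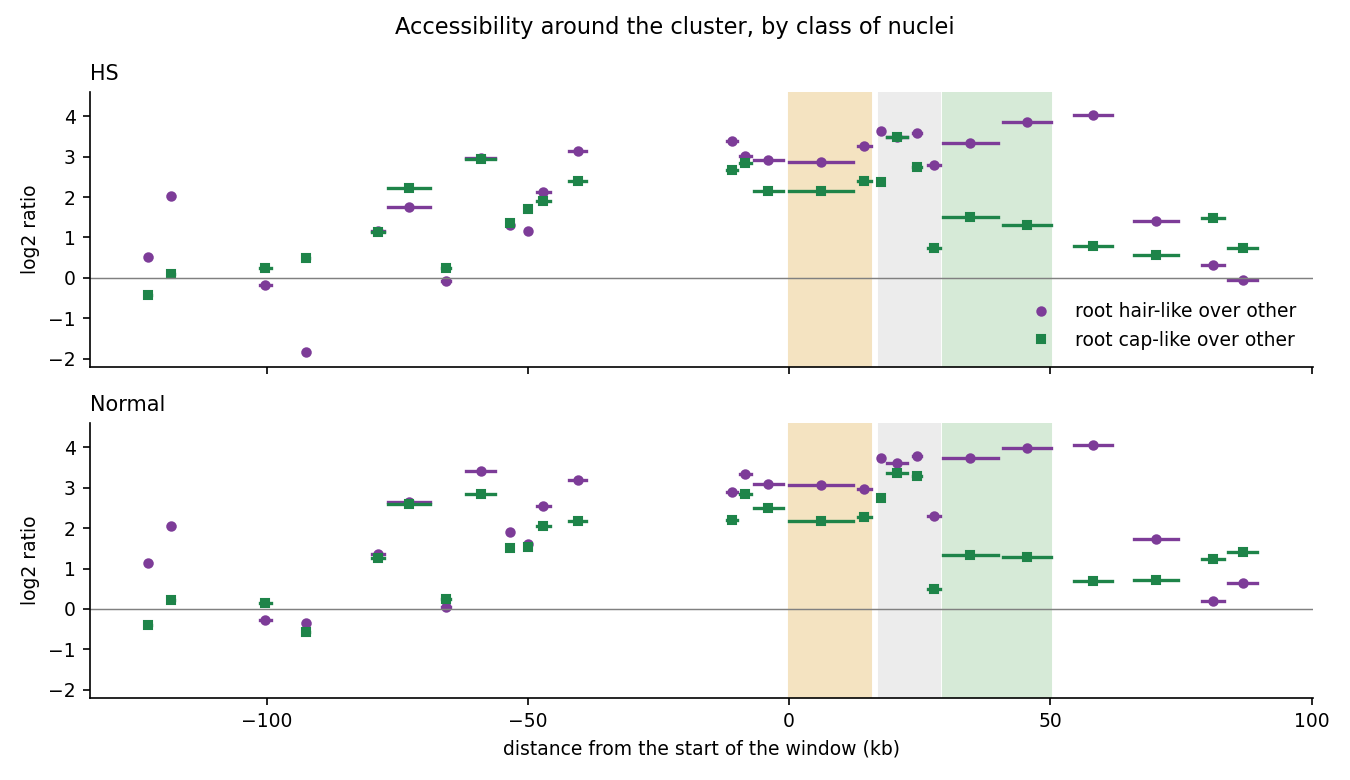
Log2 ratios of root hair-like and of root cap-like nuclei over nuclei that passed neither limit, for the regions around the cluster, in HS (upper panel) and Normal libraries (lower panel), against the distance in kb from the start of the window. The ratio of root cap-like nuclei is 3.49 in HS and 3.36 in Normal at region 4 and 1.299 in HS and 1.277 in Normal at region 8.

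To compare nuclei of unlike depth, each was thinned to 10000 cuts, which left out 120 to 195 shallower root hair-like nuclei, 31 to 68 root cap-like nuclei and 786 to 1251 nuclei that passed neither limit per library, and a block was called open in a nucleus with at least 1 cut. Block 2 was open in 93.2 and 92.4% of root hair-like nuclei in the HS libraries, and in 93.3 and 93.0% in the Normal libraries (1313 to 1502 nuclei each). Block 1 was open in 80.4 and 80.3% in the HS libraries, and in 82.9 and 83.2% in the Normal libraries. Without thinning the shares for block 1 were 86.2 and 86.0% in HS, and 85.4 and 85.9% in Normal, and those for block 2 lay between 93.0 and 93.4% in all 4. The lower share of block 1 in the HS libraries was thus seen only after thinning. Before thinning, root hair-like nuclei were deeper in HS, with medians of 26099 and 26417 cuts, against 21003 and 21452 in Normal. The unthinned shares are therefore not matched for depth. The exact binomial 95% intervals of block 1 were 78.1 to 82.5% in HS replicate 1 and 80.9 to 84.8% in Normal replicate 1, which overlap.

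In root cap-like nuclei block 1 was open in 54.7 and 58.5% in the HS libraries, and in 57.5 and 55.2% in the Normal libraries, where nuclei that passed neither limit had 18.9 to 21.6%. Block 2 was open in 44.1 and 44.8% of root cap-like nuclei in the HS libraries, and in 39.3 and 38.9% in the Normal libraries, where nuclei that passed neither limit had 17.099 to 19.3%. The middle stretch was open in 45.5 and 45.3% of root cap-like nuclei in the HS libraries, and in 43.6 and 43.3% in the Normal libraries, against 6.7 to 7.9% of nuclei that passed neither limit. The middle stretch, at 11585 bp, was thus open in root cap-like nuclei at least as often as block 2, at 20688 bp. Median depths before thinning were 23604 to 24517.5 cuts in root cap-like nuclei and 21128 to 26151.5 in nuclei that passed neither limit. Cuts from free DNA in droplets would also count as open, and the shares in nuclei that passed neither limit are given for comparison only, since these include nuclei just below the limits. Intervals cover counting error only, and most cuts come in pairs from a single fragment.

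Both blocks rose along the root hair score, and nuclei just below the class limit were already well above those with the lowest scores. In nuclei under the root cap limit, block 2 had 0.194 cuts per 10000 in HS replicate 2 and 0.194 in Normal replicate 2 among nuclei with less than 0.25 times the root hair limit, 1.87 and 1.79 between 0.75 and 1 times, and 3.06 and 3.19 between 1 and 1.25 times. Block 1 had 0.215 and 0.256, then 1.19 and 1.33, then 1.77 and 2.29 in the same bins and libraries. In HS replicate 2 the top bin, above 2 times the limit, reached 6.28 for block 2 and 3.63 for block 1 over 88 nuclei. Along the root cap score the 2 blocks behaved otherwise. Block 1 was highest between 1 and 1.5 times the root cap limit in each library, at up to 1.87 in HS replicate 2 and 1.84 in Normal replicate 2. In the HS libraries it was lower at the highest scores, with 0.434 over 23 nuclei and 0.845 over 29 nuclei above 2 times the limit. Block 2 had 1.26 in both HS libraries and 1.103 and 1.05 in the Normal libraries just below the root cap limit. Between 1 and 1.25 times that limit it had 1.24 and 1.73 in the HS libraries and 0.830 and 0.990 in the Normal libraries. At 1.5 to 1.75 times that limit it had 0.726 and 0.796 in the HS libraries and 0.656 and 0.518 in the Normal libraries.

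The 2 blocks were mostly open together in root hair-like nuclei. Both were open in 76.4% of them in each HS library, and in 78.9 and 78.7% in the Normal libraries. Block 2 alone was open in 16.8 and 15.96% in HS, and in 14.4 and 14.3% in Normal. Block 1 alone was open in 3.96 and 3.90% in HS, and in 3.99 and 4.53% in Normal. A root hair-like nucleus with only 1 of the 2 blocks open therefore had block 2 in most cases, in each of the 4 libraries.

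Root cap-like nuclei were split more evenly. Both blocks were open in 28.0 and 31.1% in HS, and in 25.7 and 25.4% in Normal. Block 1 alone was open in 26.7 and 27.4% in HS, and in 31.8 and 29.8% in Normal, and block 2 alone in 16.1 and 13.7% in HS, and in 13.6 and 13.5% in Normal. Neither was open in 27.9 to 31.3% of them. In nuclei that passed neither limit, 67.0 to 68.4% had neither block open.

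**Figure D3:**
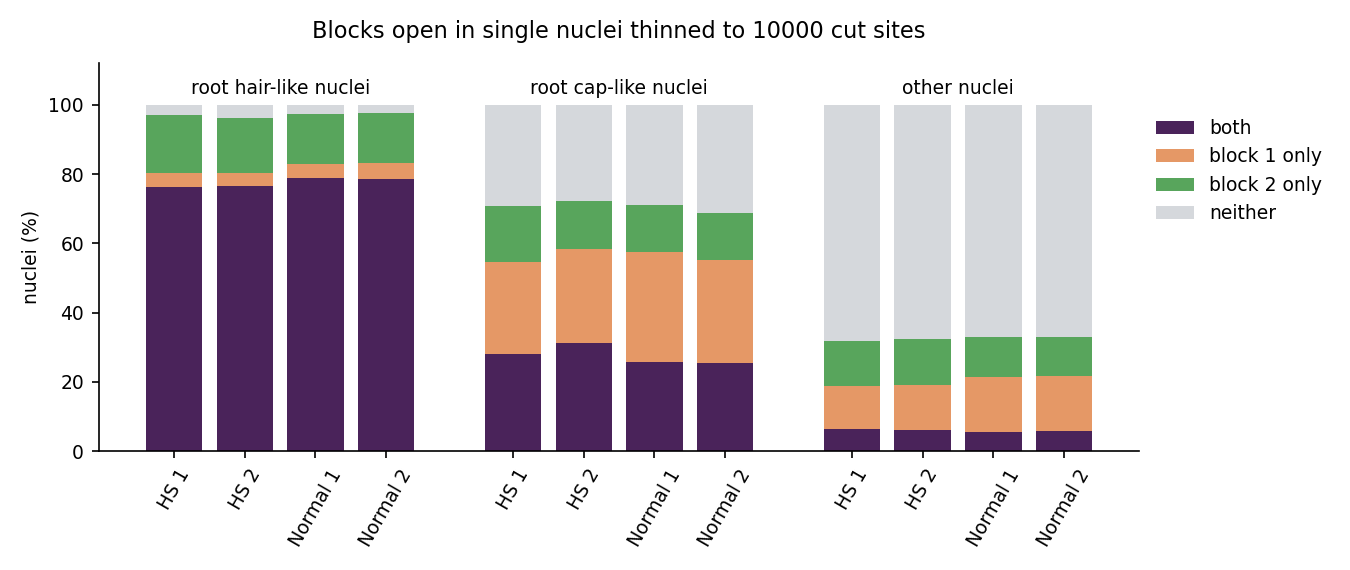
Share of nuclei with both blocks, block 1 only, block 2 only or neither open after thinning to 10000 cuts, by class and library, HS before Normal. Stacked bars add to the whole class. Both blocks are open in 76.4 to 78.9% of root hair-like nuclei and in 25.4 to 31.1% of root cap-like nuclei.

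Within root hair-like nuclei the 2 blocks opened together little more often than independent opening would give. In HS replicate 1, both were open in 1003 nuclei, where the product of the 2 shares gives 983. In HS replicate 2 the numbers were 1020 and 990, in Normal replicate 1 they were 1185 and 1161, and in Normal replicate 2 they were 1164 and 1145. The log2 ratio of observed over expected was 0.036 ± 0.010 in HS and 0.026 ± 0.0041 in Normal (SD, n = 2 each), where the shares themselves allowed at most 0.1004 to 0.115. Block 2 was open in 95.1% of root hair-like nuclei with block 1 open in both HS libraries, and in 95.2 and 94.6% in the Normal libraries. Where block 1 was shut, block 2 was open in 85.7 and 81.0% in the HS libraries, and in 84.0 and 85.5% in the Normal libraries. The odds ratio was 3.92 ± 0.97 in HS and 3.35 ± 0.56 in Normal.

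On this scale the excess was larger in root cap-like nuclei, 0.23 ± 0.024 in HS and 0.21 ± 0.040 in Normal, and the odds ratio was lower, 2.11 ± 0.29 and 1.84 ± 0.18. The closest tie within the cluster in this class was between block 1 and the middle stretch, with odds ratios of 3.55 ± 0.61 in HS and 4.69 ± 0.94 in Normal. In root hair-like nuclei the same pair had 2.19 ± 0.00032 in HS and 1.48 ± 0.29 in Normal. Over all nuclei the log2 ratio of block 1 with block 2 was 0.90 ± 0.011 in HS and 0.85 ± 0.0093 in Normal. These are descriptions across nuclei that share a library and differ in where they stand along the scores.

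In root hair-like and root cap-like nuclei some loci elsewhere in the genome gave excesses as large. Over the 4 libraries, block 1 with block 2 had a mean log2 ratio of 0.031 in root hair-like nuclei. The 29 root hair loci elsewhere in the genome had a median of 0.018 with block 1, and 7 of them were at or above 0.031. With block 2 their median was 0.013, and 3 of 29 were at or above it. Of the 31 root cap loci, 10 were at or above it with block 1 and 1 with block 2. In root cap-like nuclei, where block 1 with block 2 had 0.222, the root hair loci had medians of 0.157 with block 1 and 0.120 with block 2, and 8 and 7 of 29 were at or above 0.222. The root cap loci had medians of 0.0098 and -0.0046 in this class, and none reached 0.222. Nuclei that passed neither limit were unlike both, with 0.697 for block 1 with block 2. There the root hair loci had medians of 0.264 with block 1 and 0.317 with block 2, with 0 and 1 of 29 at or above 0.697, and the root cap loci had 0.163 and 0.244, with 0 of 31 for each block. No test was made of these values, since nuclei share their libraries and the classes rest on the same loci. The largest ratio possible depends on the open shares of each pair and is not given for the marker loci. These counts may therefore compare values with unlike limits.

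A root hair-like nucleus had 3.35 and 3.34 of the 8 regions open on average in the HS libraries, and 3.45 and 3.38 in the Normal libraries. Root cap-like nuclei had 1.696 to 1.79 and nuclei that passed neither limit 0.495 to 0.516. At most 0.0749% of root hair-like nuclei in any library had all 8 open at 10000 cuts. At this depth a nucleus samples a few cuts of a block, so a shut region is not shown to be closed.

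By origin, 67.0 and 65.2% of the cuts in block 2 came from root hair-like nuclei in the HS libraries, and 66.9 and 67.5% in the Normal libraries, and 3.87 to 4.30% from root cap-like nuclei. For block 1 root hair-like nuclei gave 52.8 and 51.2% in HS, and 49.97 and 49.99% in the Normal libraries, and root cap-like nuclei gave 8.27 and 8.09% in HS, and 10.3% in both Normal libraries. Nuclei that passed neither limit gave 31.1 to 33.4% of the cuts of block 1 and 23.6 to 27.3% of those of block 2. Their low level per nucleus thus made up a sizeable part of each block's total.

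The pattern of each block over the 12 points given by 4 libraries and 3 classes was set against that of all 40368 regions. The block 2 pattern was matched most closely by the region from 3232624 to 3234009 on chromosome 7 at LOC_Os07g06834, with a Pearson correlation of 0.997. Regions at LOC_Os05g27980, itself one of the root hair loci used for the classes, and at LOC_Os01g10210 followed at 0.996. Block 1 was matched most closely, at 0.997, by a region from 26688103 to 26692870 on chromosome 11 with no listed gene, and by LOC_Os10g29020 on chromosome 10 at 0.994. Block 1 and block 2 correlated with each other at 0.907, and 1024 regions were at least as close to block 1 and 1247 to block 2 as the blocks were to each other. The points share libraries and nuclei, so these values have no p.

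HS was then compared with Normal. The genes and the class loci come from the study's marker genes, which it presents before its HS libraries. That choice may therefore rest on the Normal libraries alone, and its part in this contrast was not tested. None of the 8 regions passed both limits (adjusted p at most 0.01 and at least 2-fold) in edgeR's quasi-likelihood test, whether over all nuclei, root hair-like nuclei or root cap-like nuclei. Of all regions tested, 4.94, 6.71 and 5.15% passed in these 3 comparisons. With only regions of similar called length in the fits, 18 of 22140, 214 of 22139 and 385 of 21873 passed. At an unadjusted p of at most 0.05, 5, 5 and 4 of the 8 regions passed, against 66.7, 51.3 and 36.1% of all regions, and DESeq2 also put 0 of 8 past both limits in each comparison. At an adjusted p of at most 0.01 and any fold, edgeR had 1 region higher in HS and 4 lower over all nuclei, where 25.1% of all regions were higher and 23.2% lower. In root hair-like nuclei 1 was higher and 2 were lower (17.4 and 15.1% of all regions), and in root cap-like nuclei 1 was higher and 1 lower (8.91 and 7.81%). Both HS libraries lay below both Normal libraries in 5, 5 and 2 of the 8 regions (41.6, 36.1 and 30.7% of all regions) and above them in 1, 1 and 3 (41.9, 36.1 and 30.8%) over all, root hair-like and root cap-like nuclei. No region of the cluster was therefore called, and the differences below are all under 2-fold.

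In root hair-like nuclei block 1 had 243 and 247 CPM (cuts scaled to a common total of each library) in the HS libraries, against 282 and 286 in the Normal libraries, and the groups did not overlap. The log2 change was -0.21 (SE 0.022, 95% interval -0.26 to -0.17, edgeR adjusted p = 2.36e-07). Of all regions tested in this class, 36.1% had both HS libraries below both Normal libraries. Over all nuclei block 1 had 74.4 and 76.0 CPM in HS, against 85.9 and 86.0 in Normal, a log2 change of -0.19 (SE 0.015, edgeR adjusted p = 4.97e-05). In root cap-like nuclei it had 139 and 154 CPM in HS, against 158 and 157 in Normal, a log2 change of -0.11 with an edgeR adjusted p of 0.156.

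The called length of block 1 was also lower in HS, with a log2 ratio of HS over Normal of -0.098. With that length as an offset in the fit, the change was -0.12 in root hair-like nuclei (edgeR adjusted p = 0.0092) and -0.10 over all nuclei (edgeR adjusted p = 0.026). Region 2, whose called length differed less than that of region 1 (log2 ratio -0.077), had log2 changes of -0.17 in root hair-like nuclei (edgeR adjusted p = 0.01004) and -0.32 over all nuclei (edgeR adjusted p = 0.000319). The difference of block 1 thus passed the limit of 0.01 with and without the length in root hair-like nuclei, and only without it over all nuclei.

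For block 2 no difference between HS and Normal was detected in root hair-like nuclei. It had 444 and 430.4 CPM in the HS libraries, against 446 and 443 in the Normal libraries, a log2 change of -0.02 (95% interval -0.06 to 0.02, edgeR adjusted p = 0.343). Here the HS and Normal libraries overlapped. Region 7 had a log2 change of -0.02 and region 8 of -0.03 in this class, and both missed the limit. With the called length as an offset the change of block 2 in root hair-like nuclei was -0.12 (edgeR adjusted p = 0.00457). Over all nuclei block 2 had 107.1 and 103.8 CPM in HS, against 101.3 and 98.6 in Normal, a log2 change of 0.08 that missed the limit in edgeR (adjusted p = 0.0125), passed it in DESeq2 (adjusted p = 0.000877) and without HS replicate 2 (edgeR adjusted p = 0.00476), and was -0.02 with the offset.

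In root cap-like nuclei block 2 was higher in HS, with 94.1 and 100.9 CPM in the HS libraries, against 75.4 and 75.5 in the Normal libraries. The log2 change was 0.37 (SE 0.066, 95% interval 0.24 to 0.50, edgeR adjusted p = 1.95e-05), from 1044 and 1032 cuts in HS and 1059 and 1075 cuts in Normal. Within block 2 the difference was in region 7, with 55.6 and 60.4 CPM in HS, against 41.7 and 36.5 in Normal (log2 change 0.57, edgeR adjusted p = 1.73e-06). Region 8 had 38.5 and 40.5 in HS, against 33.7 and 39.0 in Normal, with a log2 change of 0.12 and an edgeR adjusted p of 0.419.

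Region 7 is the region that was called as a single peak in HS and in pieces in Normal, and the log2 ratio of its called length was 0.18, where that of region 8 was 0.0056. With the called length as an offset the change of block 2 in root cap-like nuclei was 0.27 (edgeR adjusted p = 0.0065). The part of the uncounted gaps of region 7 in Normal was not tested. Nuclei that passed neither limit, in which no test was made, also had more cuts in block 2 in both HS libraries, with 0.356 and 0.361 per 10000 in HS, against 0.314 and 0.302 in Normal. For region 7 they had 0.195 and 0.206 in HS, against 0.160 and 0.154 in Normal, and for region 8 they had 0.161 and 0.156 in HS, against 0.154 and 0.148 in Normal. With stricter class limits the change of block 2 in root cap-like nuclei was 0.28 and missed the limit (edgeR adjusted p = 0.0156). The median root hair score of root cap-like nuclei was 15.1 and 14.5 in HS, against 13.04 and 13.2 in Normal. Their median root cap score was 52.5 and 55.1 in HS, against 47.4 and 46.7 in Normal. The class limits followed each library's mean and were also higher in HS. Per 10000 cuts, the root hair limit was 25.1 in both HS libraries, against 23.9 and 23.6 in Normal. The root cap limit was 37.4 and 37.5 in HS, against 35.4 and 35.0 in Normal. The part of these scores and limits in the difference was not tested.

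Regions 5 and 6 held few cuts. Region 5 was lower in HS over all nuclei, with 6.25 and 6.39 CPM in HS, against 8.73 and 8.90 in Normal (log2 change -0.48), and by log2 changes of -0.38 in root hair-like nuclei and -0.74 in root cap-like nuclei (edgeR adjusted p = 0.000152 in the last). Its called length was also shorter in HS, at 1274 and 1327 bp, against 1436 and 1448 bp in Normal. Region 6 was higher in HS in root hair-like nuclei, with 15.1 and 16.5 CPM in HS, against 12.7 and 8.84 in Normal (log2 change 0.55). Its called length varied within each condition, from 1562 to 2165 bp in HS and from 1526 to 2177 bp in Normal.

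**Figure D4:**
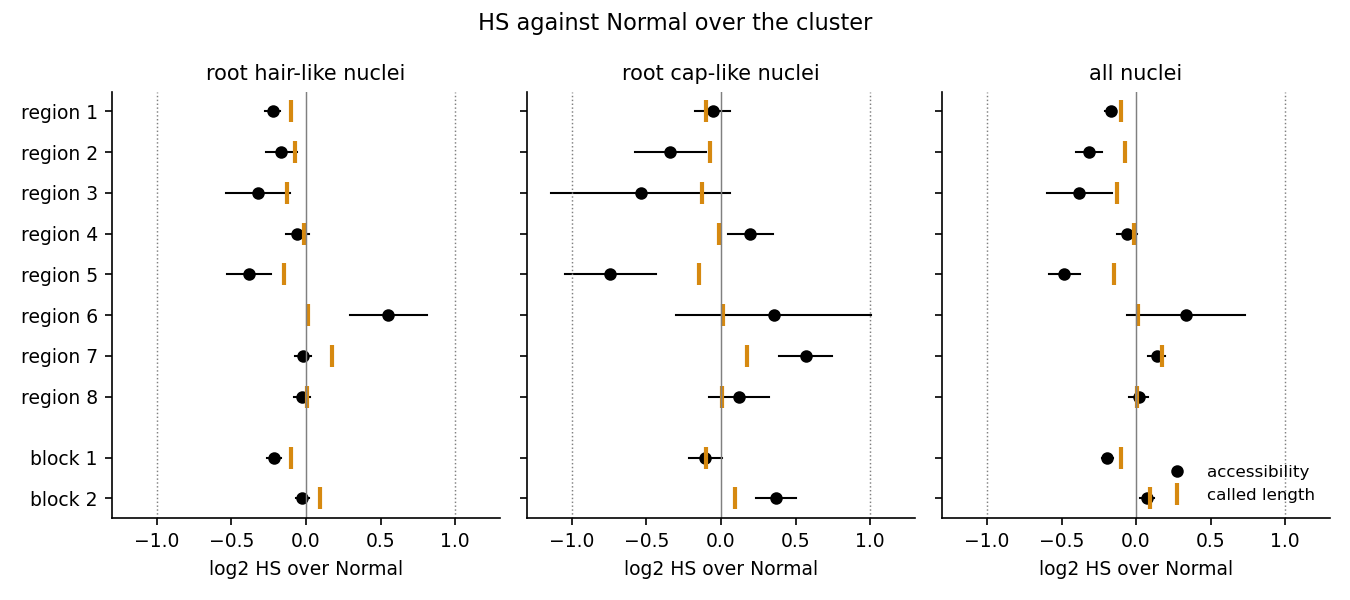
Log2 change of HS over Normal for the 8 regions and the 2 blocks in root hair-like, root cap-like and all nuclei, with 95% intervals from edgeR. Orange ticks mark the log2 ratio of called length and dotted lines a 2-fold change. No interval of the 2 blocks reaches 2-fold, and region 7 is at 0.57 in root cap-like nuclei.

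As a share of the cuts in both blocks, block 1 took 35.9 ± 0.79% in root hair-like nuclei of the HS libraries and 39.0 ± 0.33% in those of the Normal libraries. In root cap-like nuclei it took 60.1 ± 0.60% in HS and 67.6 ± 0.079% in Normal, and in nuclei that passed neither limit 47.1 ± 0.093% in HS and 53.0 ± 0.67% in Normal (SD, n = 2 each). The balance was thus lower in both HS libraries than in both Normal libraries in these 3 classes. In the 766 nuclei that passed both limits the groups overlapped, with 55.7 and 59.6% in HS, against 59.2 and 62.2% in Normal. With 2 libraries against 2, an exact permutation test cannot give a two-sided p below 0.333. The called lengths of the 2 blocks moved in the same sense.

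Whether HS and Normal differed alike in the 2 classes was tested as an interaction of class and condition with the library as a block. For block 2 the log2 change in root hair-like nuclei minus that in root cap-like nuclei was -0.38 (SE 0.059, 95% interval -0.50 to -0.26, edgeR adjusted p = 4.01e-08). For region 7 it was -0.58 (edgeR adjusted p = 1.62e-10) and for region 8 -0.14 (95% interval -0.29 to 0.02, edgeR adjusted p = 0.297). For block 1 it was -0.10 (95% interval -0.21 to 0.02, edgeR adjusted p = 0.307). Of all regions, 8.27% had an adjusted p of at most 0.01 at any fold and 2.06% passed both limits. Region 7 is the region with unlike called peaks, and their part in the difference between classes was not tested. The class limits and scores also differed between HS and Normal, and their part was not tested. With stricter class limits the difference for block 2 was -0.24 and missed the limit of 0.01 (edgeR adjusted p = 0.0112).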

How the data were processed

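Per the labels, the counts were made by the authors with Cell Ranger ATAC 1.2.0. The deposited matrices hold raw cut-site counts per peak and barcode, with peaks called in each library separately and no counts outside them; 3.72 to 3.92% of values above 0 were odd. The deposited peak positions are in base pairs. Nuclei were the barcodes with most cuts, as many per library as the study counted (10719 and 10727 in HS, 12708 and 12604 in Normal, of 490848 to 517157 barcodes), with medians of 27765 and 28143 cuts in HS and 23709 and 23839.5 in Normal. Pairs of libraries shared 163 to 254 of these barcodes. By a simulated-doublet score over 50 neighbours, 5500 nuclei were removed. Peaks sharing at least 1 bp were merged. Gene positions and marker lists came from the study's supplementary lists. Of the genes used from these lists, 29 of 31 root hair and 31 of 31 root cap genes had a region. The cluster, lists and limits were chosen with earlier results of these data known.

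Counts summed per library and class were tested across all regions with edgeR 4.0.16 (quasi-likelihood, TMM scaling, low counts filtered, Benjamini-Hochberg adjustment over all regions) and, as an alternative, DESeq2 1.42.0, in R 4.3.3. Sums used Python 3.11.15, numpy 2.4.6 and scipy 1.17.1. Named were the 6 genes, other listed genes of the surrounding area, marker loci that frame the lists, the regions at the window's edges and the 5 regions closest in pattern to each block. The scripts were tested on simulated data. Alternatives were other class limits, every other marker gene, thinning to 5000 cuts, a minimum of 2 cuts, kept doublets, barcodes with at least 10000 cuts, no filter, DESeq2 scaling, called length as an offset, regions of similar called length, each library left out and a replicate block. No sequence was used, since no genome of the files' build was at hand.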

Additional observations from a re-analysis of the deposited data

Results flagged for a closer look

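The change of block 2 between HS and Normal differed between root hair-like and root cap-like nuclei. The log2 change in root hair-like nuclei minus that in root cap-like nuclei was -0.38 (SE 0.059, edgeR adjusted p = 4.01e-08 for the interaction of class and condition), with changes of -0.02 in root hair-like nuclei and 0.37 in root cap-like nuclei. Over 11 alternatives the difference lay between -0.45 and -0.14, and the edgeR adjusted p between 2.61e-09 and 0.297, at most 0.01 in 9 of them. The other 2 were stricter class limits (-0.24, edgeR adjusted p = 0.0112) and region 8 alone (edgeR adjusted p = 0.297).

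Within block 2 the difference was -0.58 for region 7 (edgeR adjusted p = 1.62e-10), with changes of -0.02 in root hair-like nuclei and 0.57 in root cap-like nuclei, and -0.14 for region 8 (edgeR adjusted p = 0.297). Region 7 was a single peak in both HS libraries and 3 peaks in both Normal libraries. The part of these peaks in the difference was not tested, nor was that of class limits and scores, which also differed between HS and Normal. In nuclei that passed neither limit, which were not in this test, region 7 had 0.195 and 0.206 cuts per 10000 in HS, against 0.160 and 0.154 in Normal.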

How the results depend on the processing

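Of 210 values computed under an alternative, 164 kept their direction and size class, 43 moved and 3 changed sign. Of the 210, 96 were tests of the blocks, and 93 of these were counted as kept. For these tests the size class was whether both limits were passed, which no main value did. A weaker result was therefore counted as kept, and this tally does not show how stable the tests were. The adjusted p values below vary more. With each library left out in turn the change of block 1 was -0.21 to -0.18 over all nuclei, -0.23 to -0.20 in root hair-like and -0.18 to -0.03 in root cap-like nuclei, that of block 2 was 0.05 to 0.10, -0.05 to -0.00251 and 0.32 to 0.42, the difference between classes was -0.16 to -0.03 for block 1 and -0.45 to -0.31 for block 2, and 2473 to 3089, 3340 to 3965 and 1988 to 2572 regions were called. The 3 that changed sign were block 2 over all nuclei with called length as an offset (-0.017, against 0.077), block 2 in root hair-like nuclei under stricter class limits (0.027, against -0.024) and the class difference of block 1 on region 2 alone (0.19, against -0.10). An edgeR or DESeq2 adjusted p of at most 0.01 was reached in 10 of 11, 12 of 13 and 0 of 13 alternatives for block 1 and in 3 of 11, 1 of 13 and 11 of 13 for block 2, over all, root hair-like and root cap-like nuclei. Region 2 alone and region 8 alone were added after seeing the data. With only regions of similar called length, 18 of 22140 regions were called over all nuclei (against 2740), 214 in root hair-like nuclei (against 3715) and 385 in root cap-like nuclei (against 2659), from fits over fewer regions. The replicate block gave -0.19, -0.21 and -0.11 for block 1 and 0.08, -0.02 and 0.37 for block 2 over all, root hair-like and root cap-like nuclei, with 2741, 3586 and 2698 regions called. With the block, block 2 over all nuclei passed 0.01 (edgeR adjusted p = 0.00195, against 0.0125), and so it did with DESeq2 and without HS replicate 2. Deviations of same-numbered libraries had correlations of -0.0022, -0.0040 and -0.0092 over 2 pairs, so the numbers were not taken to pair them.

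Under stricter class limits the log2 ratio of root hair-like over root cap-like nuclei was 0.97 (HS) and 1.07 (Normal) for block 1 and 2.60 (HS) and 2.85 (Normal) for block 2, the open shares in root hair-like nuclei were 83.8 (HS) and 85.1% (Normal) for block 1 and 94.7 (HS) and 94.5% (Normal) for block 2, and co-opening in root cap-like Normal nuclei was 0.15. With every other marker gene the ratio was 0.66 (HS) for block 1 and 1.86 (HS) and 2.32 (Normal) for block 2, the open shares 76.5 (HS) and 81.4% (Normal) for block 1 and 88.8 (HS) and 89.6% (Normal) for block 2, and co-opening 0.069 (HS) and 0.050 (Normal) in root hair-like and 0.29 (HS) in root cap-like nuclei. Thinned to 5000 cuts, the open shares were 60.2 (HS) and 66.0% (Normal) for block 1 and 78.8 (HS) and 79.8% (Normal) for block 2, and co-opening was 0.11 (HS) and 0.059 (Normal) in root hair-like and 0.37 (HS) and 0.31 (Normal) in root cap-like nuclei. With at least 2 cuts to call a block open, the shares were 61.7 (HS) and 67.6% (Normal) for block 1 and 83.3 (HS) and 84.4% (Normal) for block 2, and co-opening 0.083 (HS) and 0.067 (Normal) in root hair-like and 0.33 (HS) and 0.40 (Normal) in root cap-like nuclei. With no doublets removed, the shares were 79.5 (HS) and 83.9% (Normal) for block 1 and 92.7% (Normal) for block 2, and the ratio for block 2 was 2.502 (Normal). It was 2.58 (Normal) over barcodes with at least 10000 cuts. Depth limits the open shares and co-opening, which moved with the thinning depth.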

Other observations

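The 766 nuclei that passed both class limits had the most open block 1 of all classes, with 3.03 and 3.37 cuts per 10000 in the HS libraries and 3.59 and 3.77 in the Normal libraries, where root hair-like nuclei had 2.41 to 2.89. Their block 2 was at 2.42 and 2.29 in HS and 2.47 and 2.29 in Normal, between the root hair-like and root cap-like levels. Region 4 was also highest in these nuclei, at 1.33 and 1.18 in HS and 1.304 and 1.303 in the Normal libraries, where root hair-like nuclei had 0.725 to 0.785. Their median depth was 20641 and 24463 cuts in HS and 23804 and 23314.5 in Normal. Root hair-like nuclei were deeper in HS, at 26099 and 26417, and shallower in Normal, at 21003 and 21452. The part of depth was not tested. Nuclei that passed both limits made up 1.65 and 1.85% of nuclei in HS and 1.99 and 1.91% in Normal.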
